A study of Danio rerio with 8 samples.

Results

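Of the 52122 transcripts listed in 8 libraries of sorted zebrafish retinal cells, 52 were read in every library of *mpeg1*:GFP+ cells and counted at 0 in every library of GFP- cells. A transcript belonged to this group when its estimated count, rounded to a whole number, was 10 or more in all 4 GFP+ libraries and 0 in all 4 GFP- libraries. These transcripts made up 0.0998% of all listed transcripts and 0.946% of the 5494 transcripts with 10 or more reads in all 4 GFP+ libraries. They were chosen by their counts in both populations, so the difference between the populations is described below and not tested. The label of the group, transcripts of GFP+ cells alone, held in part. Of the 52, 11 were found to share reads with other transcripts that had 10 or more reads in GFP- libraries. Another 14 had counts that were not whole numbers, and the transcripts that shared their reads were not found.

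The cells came from adult *mpeg1*:GFP (gl22) fish aged 10 to 12 months, whose retinas were taken 7 days after ouabain, brought to 2 µM in the eye, had been injected into the right eye. All 32 fish carried the transgene and received ouabain, so both populations came from lesioned retinas and no GFP+ cells of undamaged retinas were sequenced. The retinas were combined 8 at a time into 4 pools. Fluorescence-activated sorting, gated on GFP intensity and light scatter, gave a GFP+ and a GFP- library from each pool. GFP+ cells are those in which the *mpeg1* promoter drives GFP, and GFP- cells are the other sorted retinal cells. A pool mixes animals, so the spread between single fish was not measured.

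Ouabain blocks the sodium-potassium pump. At the dose used, the authors report, it kills neurons of the inner retina but leaves photoreceptors and Müller glia. Zebrafish replace the lost neurons from dividing Müller glia. Microglia are the resident macrophages of the retina. They take up dead cells and debris, and after a lesion they are joined by macrophages from outside the tissue. *mpeg1* encodes perforin-2, a pore-forming protein of the phagosome, and its promoter marks macrophages and microglia together. In zebrafish, *mpeg1* reporters also label some B cells, so GFP alone does not separate these cell types.

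The 3′ sequencing method used makes about one fragment per mRNA near its 3′ end. With the length correction turned off, every transcript had an effective length of 100. TPM here was therefore a transcript's share of the assigned reads, scaled to one total in all libraries, and did not depend on transcript length. Assigned reads numbered 17489304 to 23702022 per GFP+ library and 7316619 to 27727554 per GFP- library. GFP- pool 3 was the shallowest. The transcripts are known here by Ensembl identifier alone, so no member could be given a gene, a role or a sequence. For the same reason the sorted cells could not be checked here against marker genes. The authors report macrophage and microglia transcripts enriched in the GFP+ population, and those of photoreceptors and Müller glia in the GFP- population. They checked selected transcripts by qPCR in cells sorted in a separate experiment. The 2 strongest members are given by identifier, and the others by their rank in mean TPM and their length. In sorted bulk RNA, fewer cells of a type and less RNA per cell cannot be told apart.

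The 52 transcripts were a small part of the GFP+ mRNA. They held 0.0766% ± 0.0111 (SD, n = 4) of the reads of a GFP+ library. The share was 0.0618% in pool 1 (95% Wilson interval 0.0608 to 0.0628), 0.0753% in pool 2 (0.0742 to 0.0764), 0.0874% in pool 3 (0.0860 to 0.0887) and 0.0821% in pool 4 (0.0809 to 0.0834). These intervals cover counting error only, since PCR copies were not marked, and the pools differed by more than their intervals. The 5 strongest members carried 41.9% of the members' summed TPM and the 25 strongest carried 81.4%, which left 18.6% to the other 27. Without the strongest member the share was 0.0638%, at 0.0539, 0.0652, 0.0786 and 0.0576% in pools 1 to 4. In pool 4 that member took every read of the transcripts it shared reads with. The differences between pools therefore depend also on how shared reads were assigned. The mirrored rule, with the populations exchanged, found 151 of the 52122 listed transcripts. They held 0.155% ± 0.0563 (SD, n = 4) of the reads of a GFP- library. Transcripts with 10 or more reads numbered 11162 to 16458 per GFP- library and 9952 to 12520 per GFP+ library. How many had 10 or more reads in all 4 GFP- libraries was not counted. Shared reads were not looked for in the 151, so 151 and 52 cannot be compared.

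**Figure D1:**
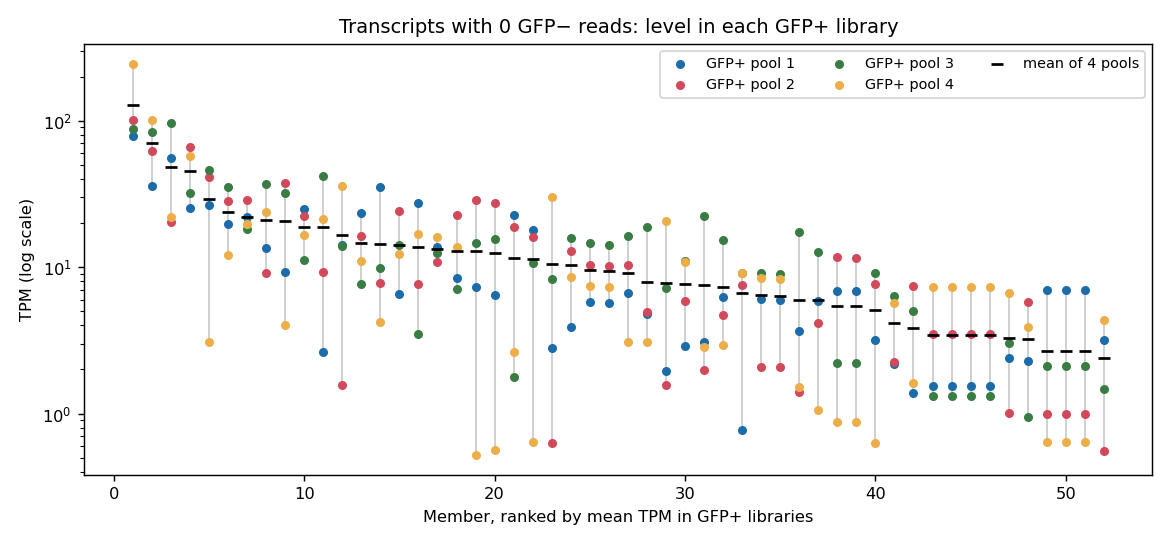
Level of each of the 52 transcripts in the 4 GFP+ libraries, in TPM on a log axis, ordered by mean TPM. Points are single libraries, black dashes are means over the 4 pools, and thin lines join the lowest to the highest library. Mean TPM fell from 128 to 2.39, and in 19 members the highest point lay more than 10-fold above the lowest.

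Most members were transcripts of low abundance. Their mean TPM over the 4 GFP+ libraries had a median of 9.20, with quartiles of 5.31 and 14.4 and a range of 2.39 to 128. Over the 5494 transcripts with 10 or more reads in all 4 GFP+ libraries the median was 30.5. Below a mean of 2 TPM, none of 22 transcripts was a member. Between a mean of 2 and 5 TPM, 12 of 136 transcripts (8.82%) were members, and between 5 and 10 TPM, 16 of 538 (2.97%) were. Between 10 and 20 TPM they were 15 of 1192 (1.26%), and between 20 and 50 TPM 7 of 1759 (0.398%). Above 50 TPM only the 2 strongest members remained, with 1 of 870 transcripts between 50 and 100 TPM and 1 of 836 between 100 and 1000 TPM, and none of the 141 transcripts above 1000 TPM was a member. The share of members fell at each step from 2 to 50 TPM. Transcripts that divide the same reads were counted singly in these shares, each at its own part of the TPM. The 12 members between 2 and 5 TPM include 4 of 1 such group, of 2424 to 2443 bases, and 3 of another, of 3051 to 3054 bases. No member with whole counts in all 8 libraries had a mean below 7.28 TPM. How far this division of reads made the fall was not tested.

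**Figure D2:**
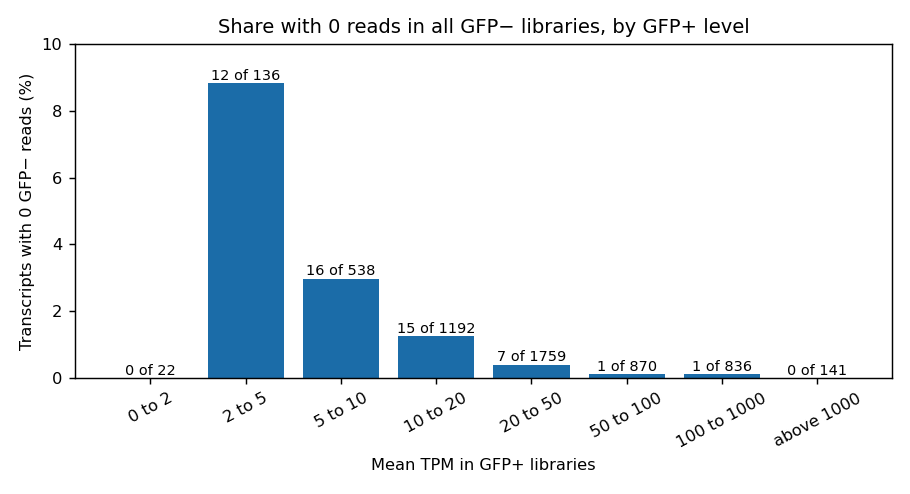
Share of transcripts with 0 reads in all 4 GFP- libraries, among the 5494 transcripts with 10 or more reads in all 4 GFP+ libraries, by mean TPM in the GFP+ libraries. Bars start at 0 and carry the number of members and of transcripts. The share fell from 8.82% between 2 and 5 TPM to 0.398% between 20 and 50 TPM. Transcripts that divide the same reads are counted singly.

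The depth of the GFP- libraries limits what a count of 0 can show. Over all 4 GFP- libraries, 84707597 reads were assigned, so a count of 0 allows up to 3 reads, or 0.0354 TPM. That limit covers counting only, and not reads that matched a member but were assigned to another transcript. It was therefore used for the 34 members with no fraction of a GFP- read and no set read in GFP- libraries. Set against that limit, their mean TPM in GFP+ libraries was 92.5-fold to 1372-fold higher, with a median of 240. The rule required the counts of 0, so these folds are a description. Of these 34, some had fractional counts and no set found, so reads assigned to other transcripts were not looked at for them. Such reads were not looked at for the members with whole counts either. For a single library the limit lay between 0.108 and 0.136 TPM in 3 of the GFP- libraries and at 0.410 in GFP- pool 3. With GFP- pool 3 left out of the rule, 72 transcripts qualified.

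Transcripts close to the threshold had levels within the range of the members. The member nearest to it, the nineteenth by mean TPM, had 173, 685, 254 and 11 reads in the GFP+ libraries of pools 1 to 4. Just outside it, 1 transcript of 1443 bases had 8 reads in its lowest GFP+ library and 0 in all GFP- libraries, at a mean of 23.4 TPM. Another 32 transcripts met the GFP+ requirement and had rounded GFP- counts that added to 1, with mean TPM from 2.75 to 48.3 and a median of 13.4. Some of these counts were fractions before rounding, such as 0.500008 for a transcript of 3581 bases. The number of members also rested on the pools. With 1 pool left out, 112 to 135 transcripts met the rule in the other 3, the lowest number without pool 2 and the highest without pool 4. The number was 126 without pool 1 and 119 without pool 3, and the share of GFP+ reads rose to between 0.150% and 0.203%.

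An estimated count of 0 does not show that no read matched a transcript. Where a read fits more than one transcript, Salmon assigns a part of it to each, so a transcript that shares reads can have a fractional count. Of the 52 members, 14 (26.9%) had whole counts in all 8 libraries, against 37.7% of the 5494 transcripts, and 38 had a fractional count in at least 1 library. The fractional counts were searched for other transcripts whose counts added to those of a member to give whole numbers. This found 16 sets, holding 24 members, and 15 of the sets summed to whole numbers in all 8 libraries. The other 14 members with fractional counts could not be placed in a set. Of these, 3 had a fraction in 1 library only, and no other transcripts were searched for them. Shared reads show that transcripts have a stretch of sequence in common, and isoforms of 1 gene and near-identical copies cannot be told apart by them.

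The 52 members stood for at most 44 separate sources of reads. In 3 sets, a pair of members shared reads with each other alone. The pair of 1323 and 1275 bases summed to 13.7, 23.3, 4.40 and 1.75 TPM in GFP+ pools 1 to 4, and the pair of 2205 and 2114 bases to 12.0, 4.13, 18.1 and 16.8 TPM. The pair of 2425 and 2654 bases summed to 11.4, 20.4, 28.7 and 14.7 TPM. Each pair divided its reads almost equally, and their pools ranked differently, with pool 4 lowest in the first pair and pool 2 lowest in the second. A set of 4 members of 2424 to 2443 bases shared reads with a shorter transcript of 1786 bases, and each of the 4 stood at 1.55, 3.49, 1.32 and 7.30 to 7.31 TPM. In pool 4 the shorter transcript was at 0 and the 4 members held all of the 29.2 TPM of the set. These groups had no GFP- read.

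In GFP- libraries, 9 sets were read under transcripts other than the members. These sets held 11 members and 15 other transcripts, and the members carried 35.1% of the members' summed TPM. Which of the GFP- reads also fitted a member cannot be told from the counts. In 2 of these sets, those of the 2 strongest members, every GFP+ library lay above every GFP- library. In the other 7 the libraries of the populations overlapped or the order was turned around. The mean was higher in GFP- libraries in 4 sets, and in 2 of those every GFP- library lay above every GFP+ library. How often other transcripts or sets separate in either direction was not counted, so 2 of 9 cannot be called many or few. The sums include the members, which were chosen by their counts in both populations and add reads almost only to GFP+ libraries. These orders are therefore a description.

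**Figure D3:**
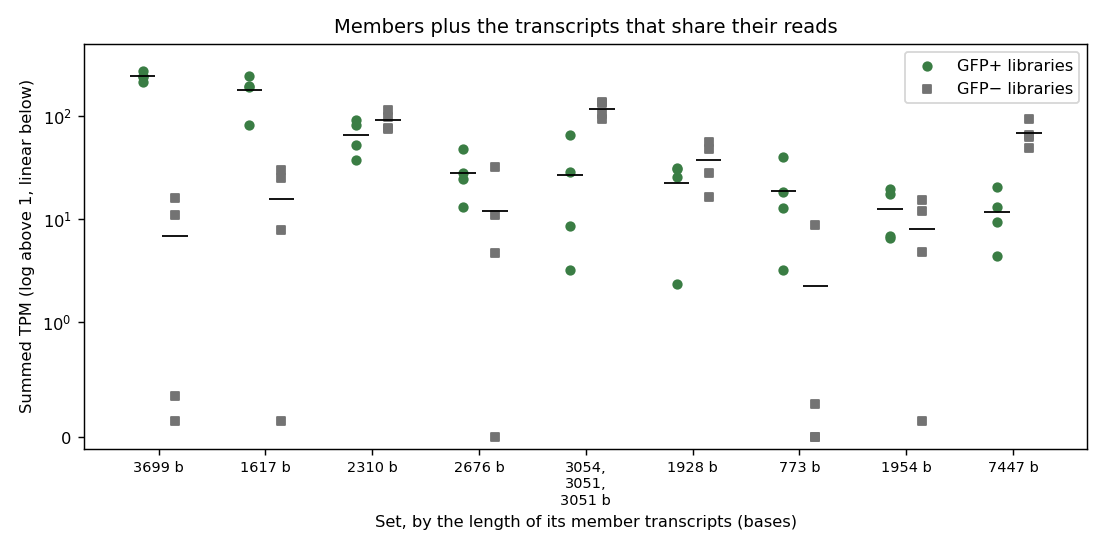
Summed TPM of the 9 sets that hold members and transcripts with GFP- reads, for each GFP+ library (circles) and each GFP- library (squares), with means as black lines. The axis is logarithmic above 1 and linear below it. The sets of the 3699-base and 1617-base members lay higher in all GFP+ libraries, and the sets of the 3 members of 3051 to 3054 bases and of the 7447-base member lay higher in all GFP- libraries.

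The strongest member, ENSDART00000086166.5 of 3699 bases, had 1858, 2404, 1525 and 5193 reads in GFP+ pools 1 to 4, or 78.9, 101, 87.2 and 245 TPM. Pool 4 stood far above the other 3. The member shared its reads with transcripts of 3702 and 2232 bases, both at 0 in GFP+ pool 4, where the member took every read of the set. Summed over the set, the GFP+ libraries were at 215, 275, 240 and 245 TPM, a mean of 244 ± 24.5 (SD, n = 4), and pool 4 no longer stood apart. The coefficient of variation (CV, the SD divided by the mean) was 0.613 for the member and 0.100 for the set. The set was also read in GFP- libraries, at 0.362, 16.2, 0.137 and 11.0 TPM, a mean of 6.92 ± 7.99 (SD, n = 4), nearly all of it counted under the 3702-base transcript. By its means the set was 35.2-fold higher in GFP+ libraries. The member, chosen by its counts in both populations, gave 52.3% of the set's GFP+ reads, so this fold is a description.

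The second member, ENSDART00000099947.4 of 1617 bases, stood at 36.0, 61.6, 83.2 and 101 TPM in GFP+ pools 1 to 4. It shared reads with a transcript of 2599 bases, which had 217, 661, 0.5 and 690 reads in GFP- pools 1 to 4. The set summed to 178 ± 68.4 TPM in GFP+ and 15.7 ± 14.1 TPM in GFP- libraries (SD, n = 4 each), an 11.4-fold difference. Here the member, chosen in the same way, gave 39.1% of the set's GFP+ reads. The lowest GFP+ library, at 81.7 TPM, lay above the highest GFP- library, at 30.0 TPM. In both leading sets GFP- pool 3 was lowest, at 0.137 TPM, which is 1 read.

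In the other 7 sets, no such separation between the populations was seen. The fifth member, of 2310 bases, stood at 26.4, 41.0, 45.9 and 3.08 TPM in GFP+ libraries, while a transcript of 2349 bases that shared its reads had 2087, 2147, 834 and 2125 reads in GFP- pools 1 to 4. Their set averaged 66.2 ± 25.5 TPM in GFP+ and 90.9 ± 18.4 TPM in GFP- libraries. The populations overlapped, and the mean was lower in GFP+ cells. Of the 3 members of 3051 to 3054 bases, 2 had identical counts, and all 3 shared reads with transcripts of 4099 and 2003 bases. Their set averaged 26.7 ± 28.5 TPM in GFP+ and 117 ± 22.3 TPM in GFP- libraries, with the GFP+ pools at 66.1, 28.9, 8.52 and 3.21 TPM and the lowest GFP- pool at 92.8 TPM. The weakest member, of 7447 bases, belonged to a set at 11.8 ± 6.70 TPM in GFP+ and 68.1 ± 18.6 TPM in GFP- libraries, the set that did not sum to whole numbers in all 8 libraries. In both sets every GFP- library was above every GFP+ library, although each of these members had passed the rule for reads in GFP+ cells alone.

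The set of the 1928-base member averaged 22.4 ± 13.6 TPM in GFP+ and 37.2 ± 18.4 TPM in GFP- libraries, and that of the 1954-base member 12.7 ± 6.97 against 8.04 ± 6.83 TPM. The set of the 2676-base member averaged 28.2 ± 14.3 against 12.1 ± 14.3 TPM, with GFP- pool 4 at 32.4 TPM. The set of the 773-base member averaged 18.6 ± 15.7 against 2.26 ± 4.34 TPM (SD, n = 4 for each of these means). All 4 overlapped between the populations. In the last of them GFP- pool 4 alone reached 8.76 TPM, above the lowest GFP+ pool at 3.21 TPM, and 2 GFP- pools were at 0.

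Before rounding, 11 members had a fraction of a read in a GFP- library, never more than 0.5. Of these, 4 belonged to sets with GFP- reads, 6 had no set found, and 1 was the 3011-base member, whose set with a 3581-base transcript summed to 1 read in GFP- pool 2. Neither kind of GFP- read was found for 34 members. With unrounded counts required to be exactly 0, 41 members remained, and their share of GFP+ reads was 0.0413%, since the 2 strongest members, the fourth and the fifth were among those lost.

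The 14 members with whole counts in all 8 libraries held 0.0215% ± 0.00709 (SD, n = 4) of the GFP+ reads, or 28.1% of the members' summed TPM. Their mean TPM in GFP+ libraries was 205-fold to 1372-fold above the limit set by a count of 0, which the rule required. Whole counts do not show that no read was shared, since a shared read can be assigned in full to 1 transcript. In GFP+ pool 4 the strongest of all members had a whole count of 5193, while the transcripts that shared its reads were at 0. The folds of the 14 over that limit therefore do not cover reads assigned to other transcripts. These 14 were 0.676% of the 2070 transcripts with whole counts among the 5494. The strongest of them, the third member by mean TPM, had 1348 bases. It had 1300, 485, 1689 and 468 reads in GFP+ pools 1 to 4, or 55.2, 20.5, 96.6 and 22.1 TPM, a mean of 48.6 ± 35.8 (SD, n = 4). Pools 1 and 3 were high and pools 2 and 4 low.

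The sixth member, of 1193 bases, stood at 19.5, 28.4, 35.1 and 12.1 TPM in GFP+ pools 1 to 4. The ninth, at 631 bases the shortest member, stood at 9.25, 37.4, 32.2 and 4.01 TPM. In both, pools 2 and 3 were highest and pool 4 lowest. The tenth, of 2367 bases, stood at 24.8, 22.4, 11.2 and 16.4 TPM, with pool 3 lowest. The seventeenth, of 3481 bases, varied least of all members, at 13.7, 10.8, 12.4 and 16.1 TPM, with a CV of 0.167. Its highest library was only 1.48-fold above its lowest, the smallest ratio among the 52. The nineteenth and twentieth, of 1970 and 2579 bases, followed one another closely, at 7.34, 28.9, 14.5 and 0.519 TPM and at 6.45, 27.3, 15.6 and 0.566 TPM. Both were highest in pool 2 and lowest in pool 4, by 55.7-fold and 48.3-fold, and their counts were whole in every library.

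The other whole-count members lay between 7.28 and 12.96 TPM in mean level. The eighteenth member by mean TPM, of 2172 bases, stood at 8.36, 22.8, 7.03 and 13.6 TPM in GFP+ pools 1 to 4. The twenty-first, of 2819 bases, stood at 22.8, 18.7, 1.77 and 2.64 TPM, high in pools 1 and 2 and low in pools 3 and 4. The twenty-fourth, of 3181 bases, stood at 3.91, 12.8, 15.7 and 8.59 TPM, with pool 3 highest and pool 1 lowest. The remaining 4 held ranks 29 to 32.

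The 13 members of sets without counted GFP- reads beyond that 1 read held 0.00777% ± 0.00101 (SD, n = 4) of GFP+ reads. The strongest of these, the thirteenth member, of 3303 bases, stood at 23.4, 16.4, 7.60 and 11.0 TPM. It shared reads with a transcript of 2304 bases that had 486 and 218 reads in GFP+ pools 1 and 4 and less than 1 in pools 2 and 3. That transcript had no GFP- read either, and missed the rule only by those 2 pools. The 2700-base member likewise shared reads with a 2396-base transcript that was at 0 in GFP+ pools 3 and 4 and in all GFP- libraries.

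The 14 members with fractional counts and no set found held 0.0204% ± 0.00330 (SD, n = 4) of GFP+ reads. The fourth member, of 1819 bases, was the strongest, at 25.3, 65.6, 32.2 and 57.3 TPM in GFP+ pools 1 to 4. The seventh, of 3060 bases, was among the steadiest members, at 22.1, 28.6, 18.1 and 19.7 TPM with a CV of 0.209. The eighth, of 3907 bases, stood at 13.4, 9.12, 36.8 and 23.9 TPM, and the eleventh, of 709 bases, at 2.62, 9.32, 41.6 and 21.2 TPM. Both were highest in pool 3. The twelfth, of 1350 bases, stood at 14.2, 1.56, 14.0 and 36.0 TPM, and the member of rank 23, of 2130 bases, at 2.81, 0.632, 8.35 and 30.2 TPM. Both were highest in pool 4 and lowest in pool 2. The fourteenth, of 1437 bases, and the sixteenth, of 1202 bases, were instead highest in pool 1, at 35.1 and 27.2 TPM. The twenty-second, of 4785 bases, fell from 17.9 TPM in pool 1 to 0.642 TPM in pool 4.

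**Figure D4:**
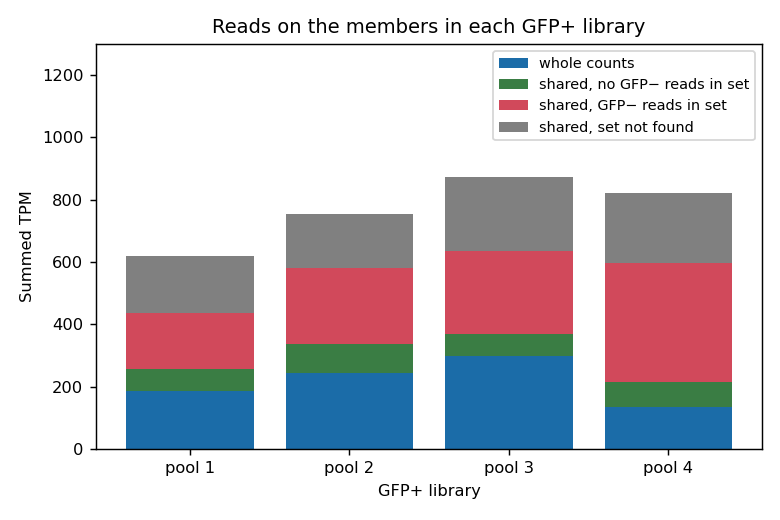
Summed TPM of the 52 members in each GFP+ library, stacked by whether a member's counts were whole, or shared with a set that had no GFP- reads, with a set that had GFP- reads, or with no set found. The totals were 618, 753, 874 and 821 TPM in pools 1 to 4, and the members of sets with GFP- reads took the largest part in pool 4.

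The members varied widely between the 4 pools. The CV of a member's TPM had a median of 0.743 and a range of 0.167 to 1.303, against a median of 0.541 over the 5494 transcripts. At like abundance the medians lay closer, at 0.811 for members against 0.708 for all between 2 and 5 TPM, 0.756 against 0.747 between 5 and 10 TPM, 0.764 against 0.664 between 10 and 20 TPM and 0.594 against 0.578 between 20 and 50 TPM. Members that divide the same reads were counted singly in these medians. The value of 0.811 is that of the 4 members of 2424 to 2443 bases, which share 1 set of reads. The highest library was above the lowest by a median of 5.82-fold, against 3.85-fold for all. Its upper quartile was 12.1 for members and 8.18 for all, and these values were not matched for abundance. That ratio exceeded 10 in 19 members and 5 in 33, and it was below 2 only in the seventh and seventeenth members. The shares of all 5494 past these cuts were not counted, so the numbers of members cannot be called many or few.

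**Figure D5:**
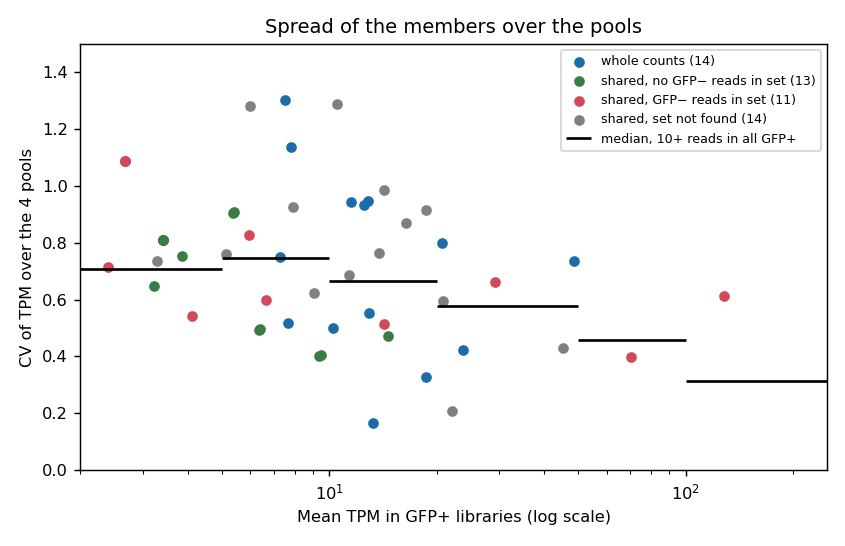
CV of TPM over the 4 GFP+ libraries against mean TPM on a log axis, 1 point per member, with colours for the kind of read sharing. Black lines are medians over the transcripts with 10 or more reads in all 4 GFP+ libraries in the same range of mean TPM. Members lay on both sides of the lines, between a CV of 0.167 and 1.303.

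No pool held the high values of all members. Pool 3 was the highest library for 20 members, pool 4 for 12, pool 2 for 11 and pool 1 for 9. Pool 4 was the lowest for 17, pools 1 and 2 for 12 each and pool 3 for 11. Members that divide the same reads were counted singly in these numbers. The 4 members of 2424 to 2443 bases were all highest in pool 4 and lowest in pool 3. The 3 members of 3051 to 3054 bases were all highest in pool 1 and lowest in pool 4. The same numbers were not counted over the 5494 transcripts. The member with the largest CV, of 4165 bases, stood at 3.06, 1.98, 22.2 and 2.83 TPM, and a 678-base member with a CV of 1.28 stood at 3.65, 1.39, 17.4 and 1.53 TPM, both far highest in pool 3. A 985-base member with a CV of 1.14 was highest in pool 4, at 20.6 TPM. Across the 52 members, log2 TPM in pairs of pools had Pearson correlations from 0.274 to 0.594, with the lowest values in pairs that held pool 4, and across the 5494 transcripts from 0.680 to 0.750. These correlations are across transcripts, some of which share reads, and describe these libraries only. Mean TPM ran from 2.39 to 128 over the members and from 0.690 to 225526 over the 5494. The correlations were not compared at like abundance, so the members cannot be called less alike between pools. Summing the reads of a set lowered the CV below that of its strongest member in 10 of the 16 sets and raised it in 6. The largest fall was that of the strongest member's set, from 0.613 to 0.100, and several falls were slight, as in the pair of 2205 and 2114 bases, from 0.496 to 0.495. The CV rose from 0.473 to 0.696 in the set of the 3303-base member and from 0.755 to 0.994 in that of the 2700-base member.

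Fewer of the members than of the 5494 transcripts were longer than 4000 bases. Lengths were not compared at like abundance, so this cannot be called a trait of the members. Their length had a median of 2338.5 bases, with quartiles of 1565.25 and 3021 and a range of 631 to 7447. The median was 2626 over the 5494 transcripts and 1564 over all listed transcripts. Of the members, 4 (7.69%) were longer than 4000 bases, against 29.2% of the 5494, and 18 (34.6%) had more than 2000 and up to 3000 bases, against 21.8%. The 18 include the 4 members of 2424 to 2443 bases that divide 1 set of reads. They also include the pairs of 2205 and 2114 and of 2425 and 2654 bases, so they are not 18 separate sources of reads. The median was 2334 for the members with whole counts and 1713.5 for those with no set found. The mirrored group of GFP- transcripts had a median length of 2516 bases and a median of 8.76 in mean TPM.

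How many members passed a test of the difference across all transcripts depended on the test. With edgeR's quasi-likelihood test over 13379 transcripts, thresholds of 0.01 on the FDR and 2 on the log2 fold change called 0.934% of transcripts higher in GFP+ cells, and 4 of the 52 members. These were the 4 strongest members, with FDRs of 0.000702, 0.00142, 0.00360 and 0.00294 in order of mean TPM. DESeq2 called 2.22% of transcripts higher in GFP+ cells, and 51 of the 52 members. Without its low-count filter edgeR called 461 of 28689 transcripts higher in GFP+ cells, and 18 of the 52. It called 17 of 13594 transcripts and 1 member without pool 1, and 14 of 14004 and 1 member without pool 2. It called 50 of 14716 and 2 members without pool 3, and 64 of 13425 and 1 member without pool 4. Nothing about the members is read from these counts and FDRs, since the rule had used the same contrast.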

How the data were processed

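Retinal cells of *mpeg1*:GFP zebrafish were sorted into GFP+ and GFP- populations from 4 pools of 8 retinas, and 3′ mRNA libraries were sequenced. The authors quantified the reads with Salmon 0.9.1 (quasi-mapping, no length correction) against Ensembl release 90 transcripts of GRCz10 and deposited estimated counts for each transcript and library. The deposited TPM values do not depend on length, since all transcripts had one effective length, and the deposited lengths are transcript lengths. The labels gave population and pool. Molecular identifiers were not used, and extra PCR cycles were run.

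Estimated counts were rounded to whole numbers, exact ties to the even number. Members had 10 or more in all 4 GFP+ and 0 in all 4 GFP- libraries. The members and the lists were chosen with earlier results of these data known. No table here pairs transcripts with genes, so marker lists, gene sums and sequences were not used here. The naming rule took the 25 highest mean TPM, the 5 lowest and 5 highest CVs and those at the threshold. Identifiers were limited to 2 strong members.

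Read-sharing sets were sought by adding the fractional counts of a member to those of up to 3 other transcripts, or of near-equal transcripts within 1%, until the sums were whole to within 5e-05. Members with a fraction in 1 library only were not searched. The search was tried on planted divisions of whole counts, and the count tests on simulated counts with known changes. Those changes set no population to 0, so they do not show how the tests treat the members. A set was called read in GFP- libraries when its other transcripts had 10 or more GFP- reads in all. A fold against 0 used a floor of 3 counts over the 4 GFP- libraries.

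The background test was edgeR 4.0.16 (R 4.3.3; quasi-likelihood, TMM, low-count filter, no block), with FDR below 0.01 and log2 fold change above 2. Alternatives were other read minimums, unrounded or thinned counts, libraries left out, DESeq2 1.42.0 with its size factors, no filter and the pool as a replicate block. The tissue labels give the GFP+ and GFP- library of a number the same pooled sample of 8 retinas, which pairs them. Deviations from the group means correlated at -0.00363 to 0.0653 within pools (mean 0.0312). Chosen after seeing the data were ties rounded up and the fold over the floor without members with any GFP- read. So were leaving out members of sets with GFP- reads, edgeR's bias-adjusted deviance, and whole-number tolerances of 2e-05 and 0.0001. Python 3.11.15, pandas 2.3.3, numpy 2.4.6 and scipy 1.17.1 were used.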

Additional observations from a re-analysis of the deposited data

Results flagged for a closer look

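In 86 groups of 4 libraries, the gap of the highest or lowest library to its neighbour was set against the whole range and Dixon's 95% critical value. The groups were the GFP+ values of the 52 members, the GFP+ sums of the 16 sets, the GFP- sums of the 9 sets read there and 9 shares of GFP+ reads. A library stood apart in 5 groups. Chance flags about 1 in 20 groups that are independent and hold normal values. These groups overlap, since the sets and shares hold the members, so 5 of 86 cannot be called many or few. The strongest member, of 3699 bases, had GFP+ pool 4 at 245 TPM against 78.9 to 101 TPM in the other pools, a ratio of 0.864. Its set of 3 transcripts stood at 215 to 275 TPM in the same libraries, with pool 4 at 245 TPM.

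In 3 weaker members GFP+ pool 3 stood apart. The member of rank 28, of 5990 bases, was at 18.8 TPM there against 3.09 to 4.93 TPM, a ratio of 0.883. The member of rank 31, of 4165 bases, was at 22.2 TPM against 1.98 to 3.06 TPM, a ratio of 0.947, and the member of rank 36, of 678 bases, at 17.4 TPM against 1.39 to 3.65 TPM, a ratio of 0.859. The summed GFP- level of the set of the 773-base member was 8.76 TPM in GFP- pool 4 against 0 to 0.290 TPM in the other GFP- pools, a ratio of 0.967.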

How the results depend on the processing

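The rule found 52 members, against 60 and 39 with minimums of 5 and 20 reads and 94 with up to 1 read allowed in each GFP- library. Leaving out GFP- replicate 3 alone gave 72, and leaving out 1 pool gave 112 to 135 transcripts, fewer libraries being required to agree. Thinning to the smallest total, 7316498 rounded reads, gave 53 to 60 over 10 draws. The share of GFP+ reads was 0.167% with up to 1 GFP- read, 0.0413% with unrounded counts, 0.118% after thinning and 0.150% to 0.203% with 1 pool left out. It was 0.0497% without the members of sets with GFP- reads, 0.0638% without the strongest member and 0.0987% of the reads left after removing the transcript with the most reads. Median abundance was 12.3 TPM with up to 1 GFP- read and 14.4 TPM after thinning. Under the alternatives run, median CV lay between 0.594 and 0.763, against 0.743 by the main rule. Median length lay between 2040 and 2424 bases, against 2338.5.

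edgeR called 125 of 13379 transcripts higher in GFP+ cells, and 461 of 28689 with no low-count filter. It called 427 of 13379 with bias-adjusted deviance, and 14 to 64 of 13425 to 14716 with 1 pool left out. DESeq2 called 637 of 28689. The members called were 4, and under the same alternatives 18, 9, 1 to 2 and 51. The cause was not tested. With the pool as a replicate block, edgeR called 155 transcripts higher, of which 107 were among the 125, and the same 4 members. The median fold over the limit of 3 reads was 260 over the 52 members and 240 over the 34 without a GFP- read. It is no lower bound for members of sets with GFP- reads. In 2 of those sets every GFP- library lay above every GFP+ library. The 11 members of sets with GFP- reads were found at each tolerance. Summing reads per gene was not run, for want of a table of genes. Depth limits a count of 0 most in GFP- pool 3, where 3 reads are 0.410 TPM, and intervals cover counting error only.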
